A study of Mus musculus with 9 samples.

Results

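The 40 genes described here carry a cell through G2 phase and mitosis. They encode the mitotic cyclins and their kinase, the mitotic kinases, the spindle checkpoint, an activator and a ubiquitin-conjugating enzyme of the anaphase-promoting complex, the kinetochore, the spindle, the cytokinesis machinery and chromosome proteins such as Ki-67. The members were chosen by gene symbol, and all 40 were found among the 16409 genes of the authors' normalized table. All 40 were also among the 12555 genes kept for testing, which had at least 1 FPKM (fragments counted for a gene, divided by its transcript length and by the size of the library) in at least 3 of 9 libraries.

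A cell that enters mitosis builds up cyclins A and B, which activate the kinase Cdk1. Polo and Aurora kinases then guide the spindle, the checkpoint holds the anaphase-promoting complex until every kinetochore is attached, and the complex marks cyclin B and securin for destruction. Transcripts of these genes accumulate in G2 and are low in resting lymphocytes, so they are commonly read as a measure of dividing cells, and Tregs that divide inside tumours are well known.

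Regulatory T cells (Tregs) were sorted as CD4+ GFP+ cells from tumours of Lewis lung carcinoma (LLC), a mouse lung tumour line, and each library is a pool of 3 to 4 mice. The 9 libraries form 3 groups of 3 pools, all from C57BL/6 mice with the genotype label wild-type, with tumours taken on day 14. Mock pools came from Mock LLC tumours of untreated mice. The β8 isotype pools came from LLC tumours that express the integrin subunit β8, in mice given an isotype control antibody whose dose the labels do not give. The anti-β8 pools came from the same β8 LLC tumours, in mice given the anti-β8 antibody (clone C6D4) intraperitoneally, in doses of 7 mg/kg, with the first on day 7 and 2 doses each week. The integrin αvβ8 activates latent TGF-β, and the title places the study's question in how it enriches Tregs in tumours. Since only the β8 groups received antibody, β8 on the tumour and the isotype antibody cannot be told apart in the comparison with Mock.

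All 8 T cell and Treg markers were found, and their summed level was 2212 to 2732 FPKM over the 9 libraries. That sum includes general T cell genes such as Cd3e. Foxp3, the defining transcription factor of Tregs, was at 74.0 to 135 FPKM and Cd4 at 66.8 to 111 FPKM. Ikzf2, of the same list, varied more. It was at 45.5 to 59.3 FPKM in Mock, 91.3 to 113 FPKM in β8 isotype and 78.7, 30.5 and 19.1 FPKM in anti-β8 pools 1 to 3. Anti-β8 pools 2 and 3 stood apart from the rest, with 9772 and 9283 genes at 1 FPKM or more in the unnormalized table against 11785 to 12177 in the other 7. Among 6164 genes with at least 5 FPKM in each of those 7 libraries, 98 and 120 were listed at 0 in anti-β8 pools 2 and 3. Depth was estimated from the lowest steps of the values at about 9280000 to 11190000 fragments a library, both of these pools included. The estimate used only values inside a fixed window, which bounds its outcome. It therefore cannot show whether these pools differ from the others in depth. A member listed at 0 there has a value of 0.0520 FPKM in pool 2 or 0.0936 FPKM in pool 3 after the authors' normalization. These values entered the tests, and such a member is called listed at 0 below.

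Many G2/M genes are regulated through the cell cycle genes homology region (CHR), a promoter element bound by the MuvB complex, which works together with nearby CCAAT boxes bound by NF-Y. Promoter windows of RefSeq (build GRCm38.p6, 250 bases before to 50 after an annotated start) were found for 35 of the 40 members. TTTGAA, the CHR core, was searched on both strands and occurred in a window of 25 members, or 71.4%, against 20.2% of the 27025 gene symbols with a window. CCAAT on either strand occurred in 71.4% of the members and 41.1% of all symbols, and both motifs occurred in 57.1% of the members and 7.97% of all symbols. Among the 8603 tested genes with a window the shares were 14.6% for TTTGAA, 42.9% for CCAAT and 5.85% for both, and matches of the motifs can overlap by 1 base at most. The matches describe letters in a window and are not shown to be bound sites. The 100 bases before the RefSeq start are printed for 4 members with both motifs, because each shows a CCAAT box 32 to 35 bases ahead of a TTTGAA near the start, from first base to first base. GENCODE places the gene's 5′ end inside the printed stretch for Cdk1, Cdc20 and Prc1. Capitals mark TTTGAA and CCAAT on either strand (TTCAAA and ATTGG where they lie on the other one). Cdk1 is printed from the minus strand of chr10:69352913-69353012, Top2a from the minus strand of chr11:99024190-99024289, Cdc20 from the minus strand of chr4:118437344-118437443 and Prc1 from the plus strand of chr7:80294376-80294475.
Cdk1: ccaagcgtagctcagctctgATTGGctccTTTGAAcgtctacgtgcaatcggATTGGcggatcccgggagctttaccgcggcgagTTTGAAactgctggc
Top2a: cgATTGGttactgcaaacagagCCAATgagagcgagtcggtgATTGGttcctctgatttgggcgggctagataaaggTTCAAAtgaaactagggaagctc
Cdc20: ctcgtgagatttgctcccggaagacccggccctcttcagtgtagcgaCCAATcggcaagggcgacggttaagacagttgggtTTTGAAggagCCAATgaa
Prc1: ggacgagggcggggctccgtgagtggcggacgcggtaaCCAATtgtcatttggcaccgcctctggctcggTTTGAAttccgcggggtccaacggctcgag

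**Figure D1:**
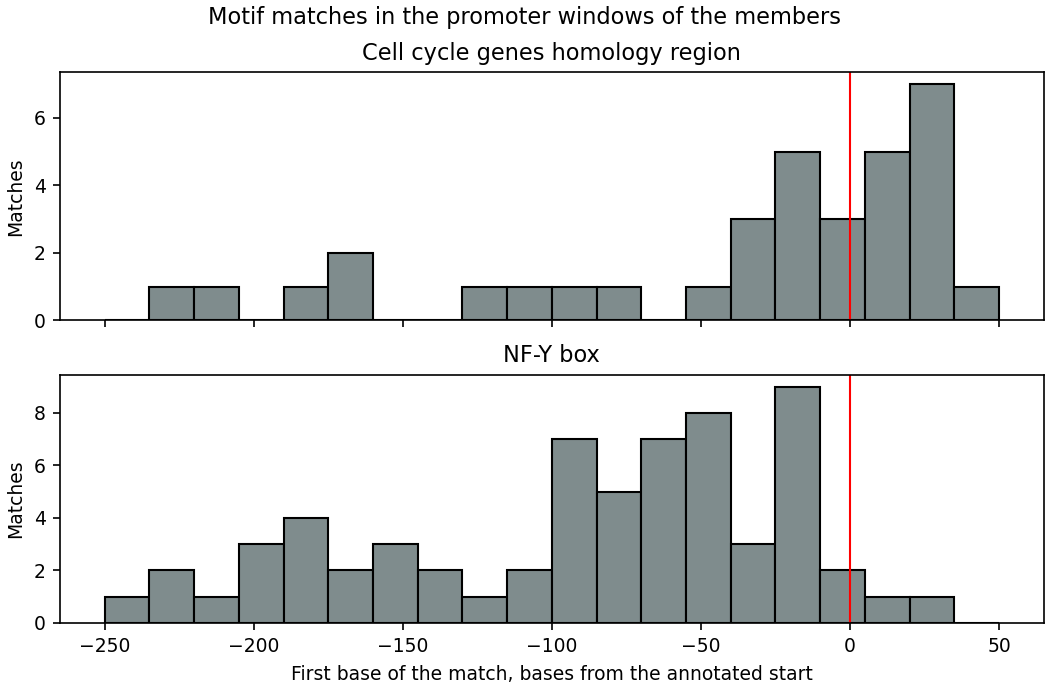
Histograms of motif matches in the RefSeq promoter windows of the 35 members that have one, by distance of the match's first base from the annotated start (x axis, bases; y axis, number of matches; red line, start). Matches in all windows of a gene are counted, and most matches to the cell cycle genes homology region lie within 50 bases of the start.

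The members spanned a wide range of levels per kilobase. By the mean over 9 libraries, 5 members were at 100 FPKM or more, 12 at 10 to under 100 FPKM and 23 under 10 FPKM. The highest were Hmgb2, a DNA-bending protein of chromatin, Cks2, the small partner of Cdk1, Stmn1, which destabilizes microtubules, Tubb5, a β-tubulin, and Cenpa, the centromeric histone. Several of these have roles outside mitosis, and Tubb5 and Hmgb2 have close relatives in their families, so shared reads make their values uncertain. In bulk libraries, fewer cells of a type and less RNA per cell cannot be told apart, so a level here may move with the share of dividing cells or with the amount of transcript in each.

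**Figure D2:**
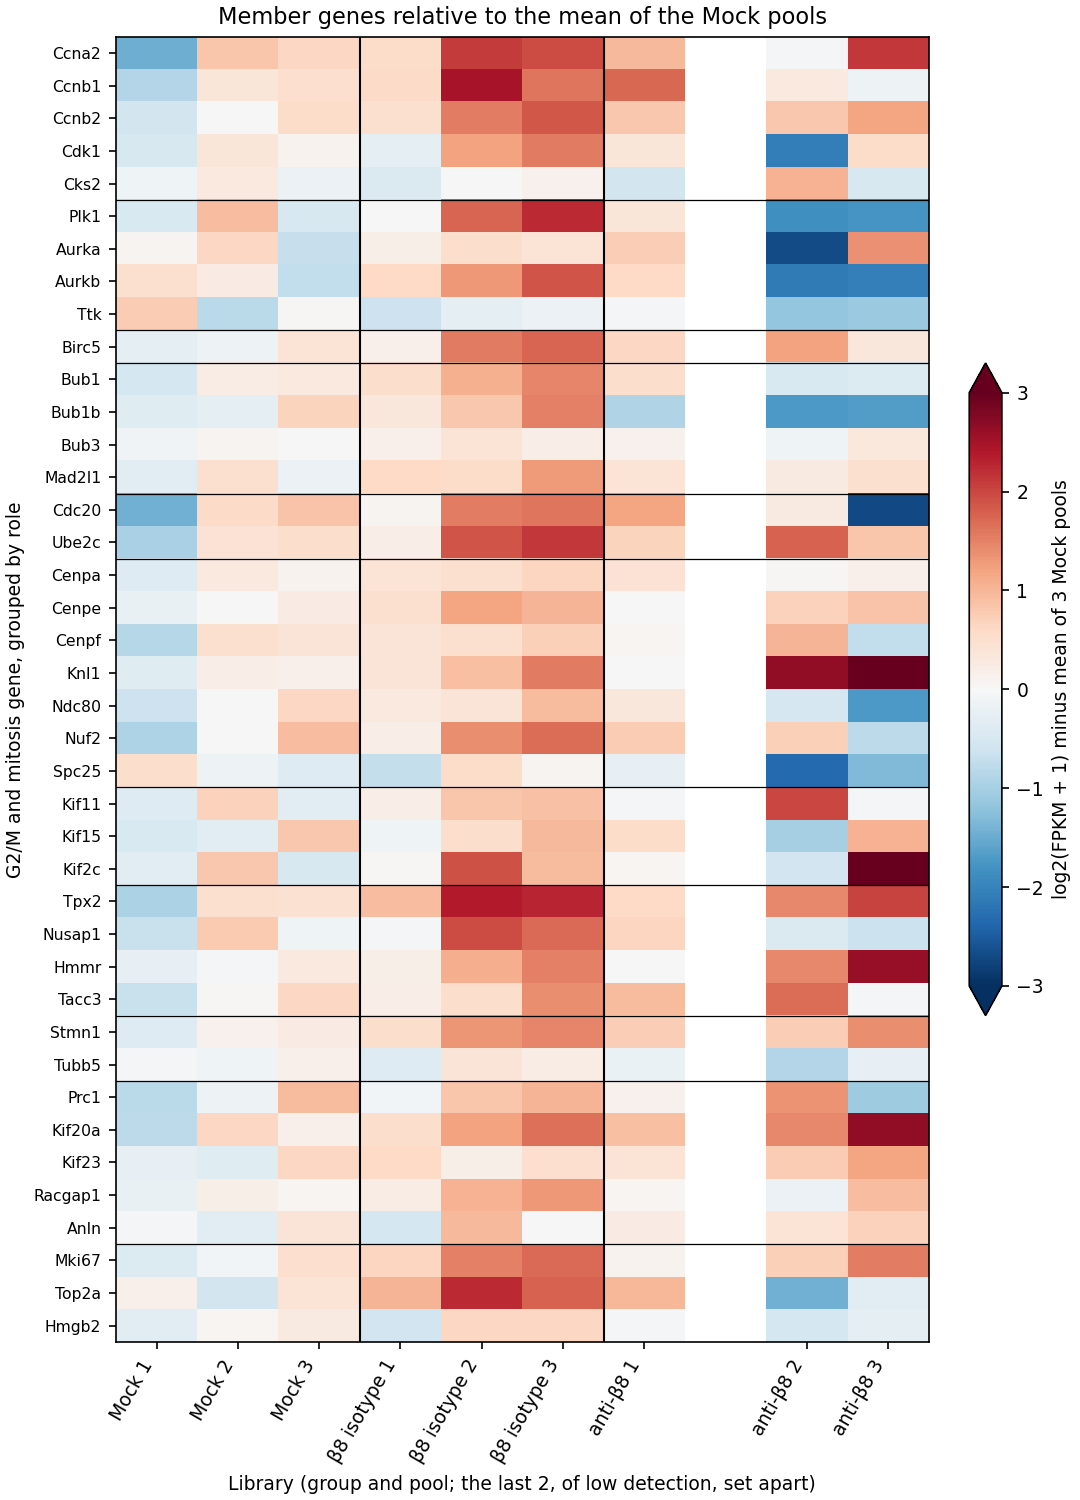
Heat map of the 40 members (rows, grouped by role and separated by lines) in the 9 libraries (columns), coloured by log2(FPKM + 1) minus the mean of the 3 Mock pools, with the scale ending at 3 in each direction. β8 isotype pools 2 and 3 are red for most members, and anti-β8 pools 2 and 3, set apart at the right, hold both strong red and strong blue cells.

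Mitotic genes lay higher in Tregs of β8 isotype tumours than in those of Mock tumours for nearly all members, but no single gene passed the test. Of the 40 members, 37 had a log2 difference above 0, with a median of 0.89, while 50.8% of all genes kept were above 0, with a median of 0.0087. The test across all genes in limma called 0 of 40 members at an adjusted p under 0.05, and it called 0.00796% of all genes. At an unadjusted p under 0.05, 12 members (30.0%) were higher and 0 were lower, against 2.99% of all genes higher. In 13 members (32.5%), every β8 isotype pool was above every Mock pool, against 8.98% of all genes. These were Ccnb1, Aurkb, Bub1, Bub3, Mad2l1, Cenpa, Cenpe, Knl1, Tpx2, Stmn1, Racgap1, Mki67 and Top2a.

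The count at an unadjusted p under 0.05 depended on single pools. Without Mock pool 1 the 12 members became 4, without β8 isotype pool 2 they became 4, and without β8 isotype pool 3 they became 3. In these fits 2.11%, 2.24% and 1.96% of all genes were higher. The count rose to 17 without β8 isotype pool 1, against 2.65% of all genes. It rose to 16 when only the 6 libraries compared entered the model, against 6.47% of all genes. The β8 isotype pools also differed among themselves, and pool 1 was the lowest of the 3 in 38 of 40 members and lay within the Mock range in 22. Pool 1 exceeded every Mock pool in 13 members, pool 2 in 31 and pool 3 in 34. The Mock pools differed as well, and Mock pool 1 was the lowest of the 3 Mock pools in 29 members. Leaving out 1 pool at a time gave median log2 differences of 0.63 to 1.20, with 0.67 without Mock pool 1.

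**Figure D3:**
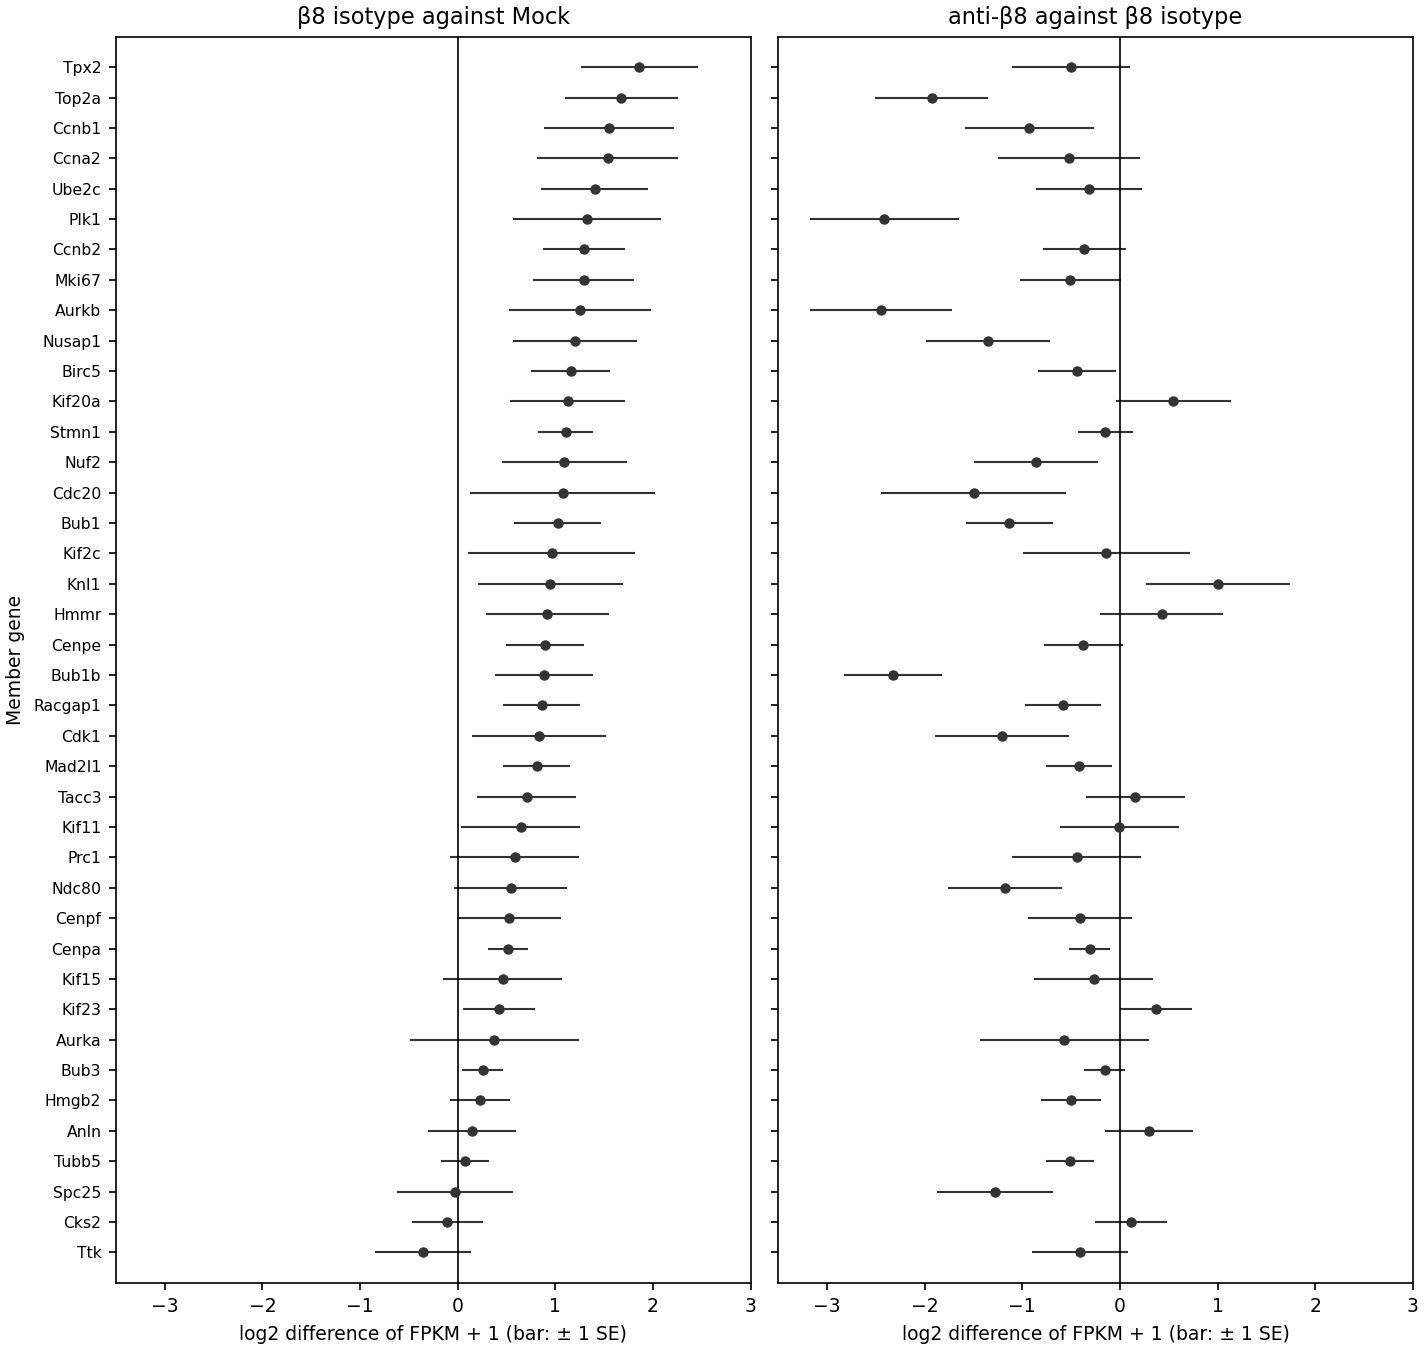
Log2 difference of FPKM + 1 with its standard error (x axis) for each member (y axis, ordered by the left panel) in β8 isotype against Mock and in anti-β8 against β8 isotype. In the left panel 37 of 40 points lie above 0 and in the right panel 33 of 40 lie below 0, with both comparisons using the same β8 isotype pools.

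The cyclins and Cdk1 form the switch into mitosis. Ccnb1, cyclin B1, was at 0.510, 2.56 and 2.90 FPKM in Mock pools 1 to 3, at 3.08, 14.4 and 7.37 FPKM in β8 isotype pools 1 to 3, and at 8.11, 2.36 and 1.49 FPKM in anti-β8 pools 1 to 3. Every β8 isotype pool exceeded every Mock pool, and in these normalized values the anti-β8 pools spread from the Mock range up to the β8 isotype range. Before the authors' normalization, anti-β8 pool 3 held 0.217 FPKM of Ccnb1, below the lowest unnormalized Mock value of 0.602 FPKM. The log2 difference between β8 isotype and Mock was 1.55 ± 0.66 (SE), with a limma adjusted p of 0.819. Ccnb2, cyclin B2, was at 5.24, 8.32 and 12.5 FPKM in Mock, 11.8, 25.8 and 32.4 FPKM in β8 isotype and 15.1, 15.1 and 19.8 FPKM in anti-β8. β8 isotype pool 1 lay inside the Mock range, and all 3 anti-β8 pools lay above that range. Cdk1, the kinase that these cyclins activate, was at 8.92, 17.0 and 13.9 FPKM in Mock, 10.3, 31.2 and 39.8 FPKM in β8 isotype and 16.8, 2.31 and 19.4 FPKM in anti-β8. Its β8 isotype pools 2 and 3 were above all others, while pool 1 lay among the Mock pools and anti-β8 pool 2 was the lowest of the 9. Ccna2, cyclin A2, averaged 5.14 ± 3.80 (SD, n = 3 pools) in Mock and 15 ± 7.62 FPKM (SD, n = 3) in β8 isotype, and its lowest Mock pool held 0.812 FPKM. Cks2 averaged 149.6 ± 27.0 in Mock, 139 ± 27.6 in β8 isotype and 171 ± 117 FPKM in anti-β8 (SD, n = 3 each), so its groups overlapped throughout.

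The mitotic kinases were the role group most often listed at 0 in anti-β8 pools 2 and 3. Plk1, the polo kinase that drives mitotic entry and spindle poles, was at 1.73, 6.14 and 1.71 FPKM in Mock, 2.73, 11.6 and 16.7 FPKM in β8 isotype and 3.79 FPKM in anti-β8 pool 1, and was listed at 0 in both other anti-β8 pools. β8 isotype pools 2 and 3 were above every other library, and pool 1 lay in the Mock range. Aurkb, the kinase of the chromosomal passenger complex, was at 5.40, 4.43 and 1.72 FPKM in Mock, 5.87, 10.1 and 15.8 FPKM in β8 isotype and 5.87 FPKM in anti-β8 pool 1, with both other pools listed at 0. Anti-β8 pool 1 was equal to β8 isotype pool 1 to the digits printed. Aurka, the centrosomal Aurora kinase, held 0.0520 FPKM (listed at 0) in anti-β8 pool 2 and 16.4 FPKM in pool 3, which are the lowest and the highest of its 9 values. Ttk, the checkpoint kinase Mps1, was a member with a log2 difference below 0 in β8 isotype against Mock, at -0.36 ± 0.49 (SE). Birc5, survivin, a passenger subunit that also has roles in cell survival, was at 29.3, 32.1 and 47.4 FPKM in Mock, 39.7, 106 and 122 FPKM in β8 isotype and 54.7, 83.1 and 45.1 FPKM in anti-β8. Its β8 isotype pools 2 and 3 were the 2 highest of the 9, and its log2 difference against Mock was 1.16 ± 0.40 (SE, adjusted p 0.645 in limma).

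The checkpoint genes split by level. Bub1b, the checkpoint protein BubR1, was at 1.70, 1.83 and 4.57 FPKM in Mock, 3.39, 5.12 and 8.95 FPKM in β8 isotype and 0.869 FPKM in anti-β8 pool 1, and was listed at 0 in pools 2 and 3. All 3 anti-β8 pools were below all 6 other libraries, and anti-β8 pool 1, which has full detection, was among them. The log2 difference between anti-β8 and β8 isotype was -2.32 ± 0.50 (SE), the smallest p of the members there, with an adjusted p of 0.311 in limma. Bub3, an abundant partner of Bub1 and BubR1, was at 38.9, 44.7 and 42.7 FPKM in Mock, 46.5, 56.3 and 48.8 FPKM in β8 isotype and 45.8, 38.3 and 52.2 FPKM in anti-β8. All β8 isotype pools were above all Mock pools, by a log2 difference of 0.26 ± 0.21 (SE), and the anti-β8 pools reached from below the Mock values into the β8 isotype range. Bub1, the kinase that recruits checkpoint proteins, averaged 0.488 ± 0.425 in Mock and 2.03 ± 0.964 FPKM in β8 isotype (SD, n = 3 each), without overlap. Mad2l1, the checkpoint effector Mad2, averaged 10.7 ± 3.64 and 19.5 ± 6.19 FPKM there (SD, n = 3 each), also without overlap.

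Anaphase begins when Cdc20 activates the anaphase-promoting complex. Cdc20 was at 1.66, 9.64 and 12 FPKM in Mock, 6.60, 19.6 and 21 FPKM in β8 isotype and 15.4 and 7.58 FPKM in anti-β8 pools 1 and 2, and was listed at 0 in pool 3. β8 isotype pools 2 and 3 were the highest, and the lowest were Mock pool 1 and anti-β8 pool 3. Ube2c, the ubiquitin-conjugating enzyme of the complex, averaged 21.5 ± 10.5 in Mock, 61.7 ± 34.5 in β8 isotype and 45.1 ± 20.1 FPKM in anti-β8 (SD, n = 3 each). All 3 anti-β8 pools of Ube2c lay above all Mock pools.

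Kinetochore genes were mostly low. Cenpf, which binds kinetochores in late G2, was at 0, 1.55 and 1.37 FPKM in Mock, 1.36, 1.53 and 2.01 FPKM in β8 isotype and 0.910 and 2.67 FPKM in anti-β8 pools 1 and 2, and was listed at 0 in pool 3. Its groups overlapped, and Mock pool 1 was also at 0. Knl1, the kinetochore scaffold, was under 1 FPKM in all Mock pools and reached 7.90 and 11.9 FPKM in anti-β8 pools 2 and 3, while anti-β8 pool 1 held 0.412 FPKM. Cenpa was higher in every β8 isotype pool than in any Mock pool, at 123 ± 10.6 against 87.8 ± 20.5 FPKM (SD, n = 3 each). Cenpe, the kinetochore motor, averaged 0.403 ± 0.226 in Mock and 1.64 ± 0.629 FPKM in β8 isotype (SD, n = 3 each), without overlap. Ndc80, Nuf2 and Spc25 form the Ndc80 complex that grips microtubules, and their log2 differences in β8 isotype against Mock were 0.54, 1.09 and -0.02. The role group as a whole had 6 of 7 members above 0, with a median of 0.54.

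Spindle genes held the member of largest difference in β8 isotype against Mock. Tpx2, which activates Aurora A at the spindle, was at 0.220, 2.26 and 2.24 FPKM in Mock, 3.43, 11.2 and 10.4 FPKM in β8 isotype and 2.57, 5.34 and 8.60 FPKM in anti-β8. Every pool of both β8 groups exceeded every Mock pool, and the log2 difference of β8 isotype against Mock was 1.86 ± 0.60 (SE, adjusted p 0.610 in limma). Kif11, the motor that separates spindle poles, was at 0.884, 2.97 and 0.983 FPKM in Mock, 1.83, 3.40 and 3.53 FPKM in β8 isotype and 1.37, 8.81 and 1.39 FPKM in anti-β8, and its highest library was anti-β8 pool 2. Before the authors' normalization Kif11 was at 0.169 FPKM in anti-β8 pool 3, the lowest of its 9 unnormalized values. Kif15, a motor with overlapping function, and Kif2c, which removes tubulin from microtubule ends, each had 1 of anti-β8 pools 2 and 3 highest of 9 and the other lowest. Nusap1, Hmmr and Tacc3, which bundle or anchor spindle microtubules, differed from Mock by 1.20, 0.92 and 0.71 on the log2 scale in β8 isotype.

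Stmn1 was at 60.3, 86.5 and 93.5 FPKM in Mock, 114, 198 and 219.5 FPKM in β8 isotype and 131, 133 and 209 FPKM in anti-β8. All 6 pools of β8 tumours were above all Mock pools, whichever antibody was given. Its log2 difference of β8 isotype against Mock was 1.11 ± 0.28 (SE), the smallest p of the members, with an adjusted p of 0.385 in limma. Tubb5 was at 132, 122 and 150.2 FPKM in Mock, 102, 176 and 157 FPKM in β8 isotype and 117, 72.4 and 113 FPKM in anti-β8, and every anti-β8 pool was below every Mock pool while β8 isotype spanned both.

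Genes of the central spindle and of cytokinesis were all above 0 in β8 isotype against Mock, 5 of 5, with a median of 0.59. Racgap1, a subunit of centralspindlin, averaged 11.7 ± 1.70 in Mock and 23.0 ± 8.46 FPKM in β8 isotype (SD, n = 3 each), without overlap, and its partner motor Kif23 averaged 10.2 ± 4.49 and 13.5 ± 2.19 FPKM. Prc1, which bundles antiparallel microtubules, Kif20a, a motor of the central spindle, and Anln, a scaffold of the contractile ring, differed by 0.59, 1.13 and 0.14 on the log2 scale. Kif20a reached 12.7 FPKM in anti-β8 pool 3, the highest of its 9 values.

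Chromosome proteins include the usual markers of division. Mki67, which encodes the proliferation marker Ki-67, was at 1.10, 1.62 and 2.96 FPKM in Mock, 3.39, 6.98 and 8.11 FPKM in β8 isotype and 2.01, 3.55 and 7.11 FPKM in anti-β8. β8 isotype was above Mock in every pool, by 1.29 ± 0.52 on the log2 scale (SE, adjusted p 0.773 in limma), and the anti-β8 pools spread across both groups. Top2a, the topoisomerase that untangles sister chromatids, was at 10.1, 5.80 and 12.3 FPKM in Mock, 19.2, 46.3 and 33.0 FPKM in β8 isotype and 19.0, 2.68 and 7.05 FPKM in anti-β8. Each β8 isotype pool was above each Mock pool and each anti-β8 pool. Hmgb2 was at 131, 174 and 201 FPKM in Mock, 111, 256 and 258 FPKM in β8 isotype and 163, 115 and 138 FPKM in anti-β8, where β8 isotype pools 2 and 3 were the highest and pool 1 the lowest of the 9.

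**Figure D4:**
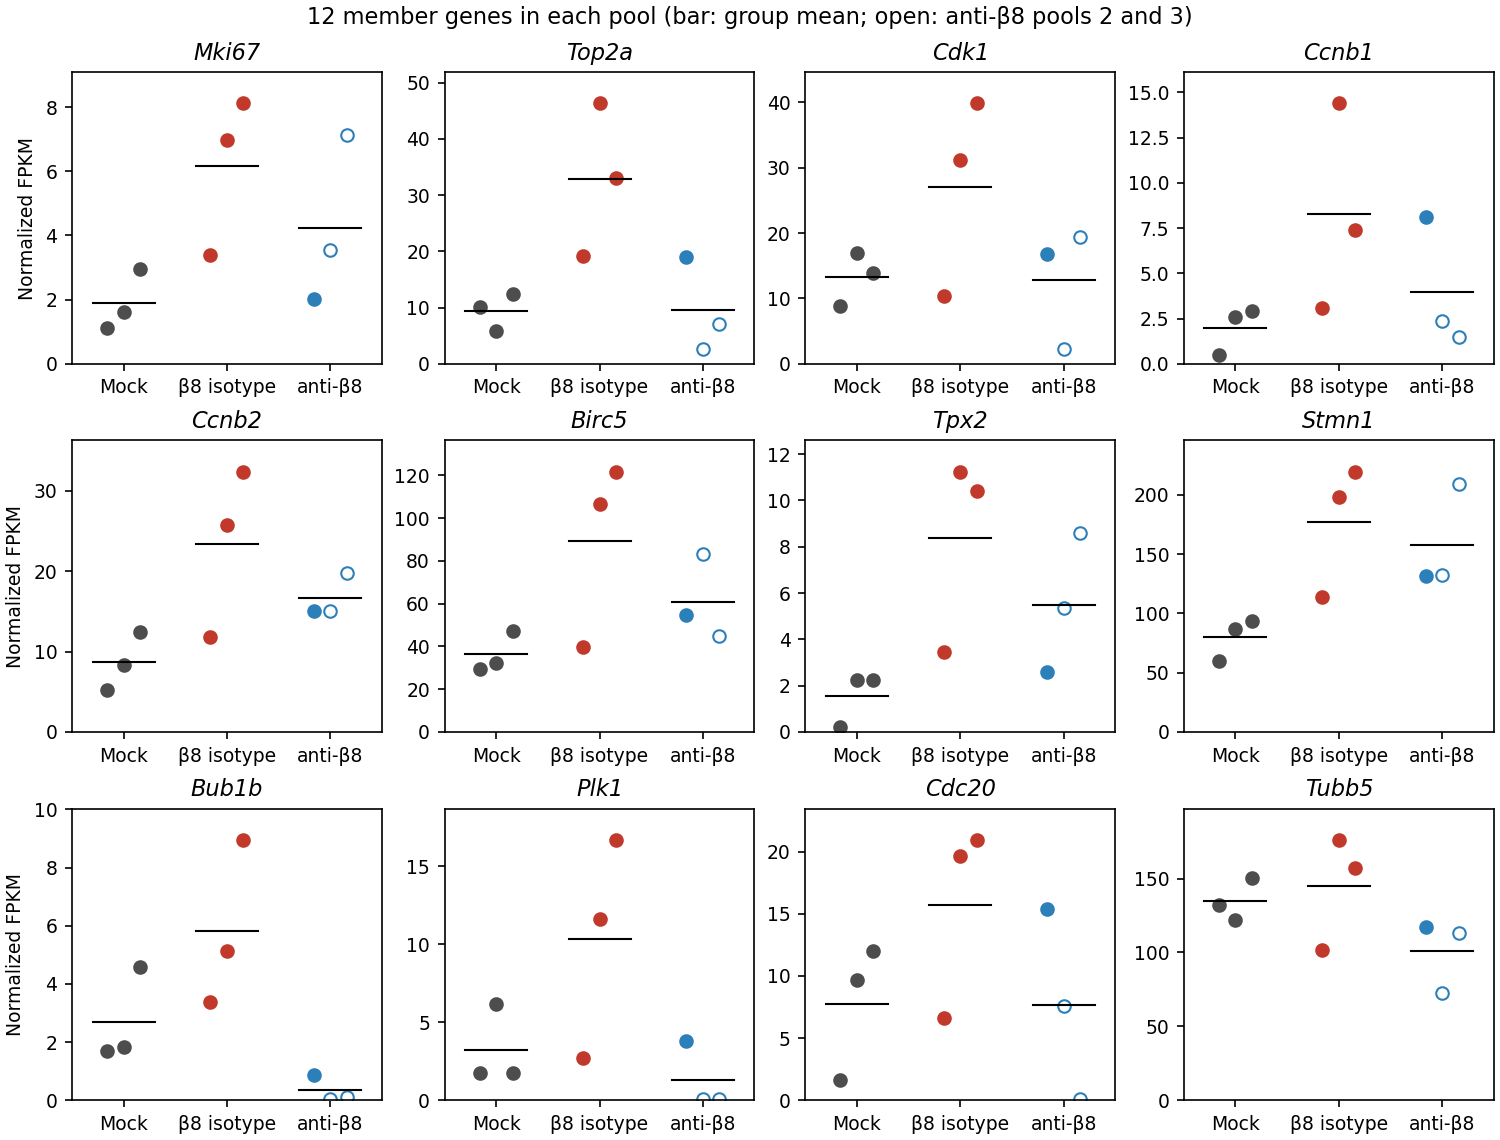
Normalized FPKM (y axis, from 0) of 12 members in each of the 9 pools by group (x axis), with a bar at the group mean and open circles for anti-β8 pools 2 and 3. For most genes shown, β8 isotype pools 2 and 3 are the highest and pool 1 lies near the Mock pools.

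Against β8 isotype, the mitotic genes lay lower in anti-β8 for most members, and again none passed the test. The comparison shares its β8 isotype pools with the one against Mock. Below 0 were 33 of 40 members, with a median of -0.44 against -0.036 for all genes, and limma called 0 members against 0.0637% of all genes. At an unadjusted p under 0.05, 5 members (12.5%) were lower, namely Plk1, Aurkb, Bub1, Bub1b and Top2a, against 6.20% of all genes, and 0 were higher, against 3.97%. Pools did not overlap for 4 members (10%), all lower in anti-β8 (Bub1, Bub1b, Mad2l1 and Top2a), against 7.63% of all genes lower and 7.34% higher. Of these genes, Plk1, Aurkb, Bub1 and Bub1b were listed at 0 in both anti-β8 pools of low detection. With those pools removed, 1 member was lower at an unadjusted p under 0.05, against 3.03% of all genes, and the median was -0.46, with the lone remaining pool assumed to vary like the other groups. That pool alone was below β8 isotype pools 2 and 3 in 33 of 40 members, below all 3 in 14, and inside the Mock range in 21. Without β8 isotype pool 1 the 5 members became 11, against 4.05% of all genes, and the median -0.77. Without anti-β8 pool 1 they became 10, with Aurkb called, but that fit also had 12% of all genes lower and called 142 genes instead of 8.

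Against Mock, the anti-β8 pools held the members on both sides. The median log2 difference was 0.22, 26 of 40 members were above 0, and limma called 0 members against 0.183% of all genes. At an unadjusted p under 0.05, 5 members (12.5%) were higher, namely Ccnb2, Knl1, Tpx2, Stmn1 and Kif20a, against 6.09% of all genes, and 1, Bub1b, was lower, against 7.87%. Pools did not overlap for 5 members higher (Ccnb2, Ube2c, Tpx2, Stmn1 and Kif20a), against 7.89% of all genes, and for 2 lower (Bub1b and Tubb5), against 8.40%. The median changed sign on the unnormalized table, to -0.033, where the median of all genes was -0.15. Without Mock pool 1 the 5 higher members became 1, against 3.95% of all genes, and the median 0.025. They became 3 without β8 isotype pool 2, β8 isotype pool 3 or anti-β8 pool 2, against 5.15%, 4.90% and 7.41% of all genes, and 2 without anti-β8 pool 3, against 6.28%. Without anti-β8 pool 1 the lower members became 5 and Knl1 was called, shares like those of all genes in that fit, with 12.4% lower and 2.57% called. With both anti-β8 pools of low detection removed, 1 member was higher, against 4.08% of all genes, 0 were lower, against 4.75%, and the median was 0.38.

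Anti-β8 pools 2 and 3 differed widely from each other in these genes. Of 40 members, 8 were listed at 0 in pool 2 and 9 in pool 3, 12 in either and 5 in both (Plk1, Aurkb, Ttk, Bub1 and Bub1b), whereas 3 members (Bub1, Cenpf and Nuf2) were at 0 in any other library, all in Mock pool 1. In the same pools 13 members had their highest value of all 9 and 15 their lowest, and 4 (Aurka, Kif15, Kif2c and Prc1) had both. Pools 2 and 3 were over 4-fold apart in 12 members, while β8 isotype pools 2 and 3 were so in 0 and Mock pools 2 and 3 in 3. Among the 22 members with a mean of 1 to under 10 FPKM in the other 7 libraries, 36.4% were listed at 0 in each of both pools, against 22.1% and 25.1% of all genes kept at that level. Among the 17 members at 10 FPKM or more there were 0 and 1 (Cdc20), against 2.63% and 3.11% of genes kept. The authors' normalization also raised 4 members in pool 2 and 7 in pool 3 to over 2 times their unnormalized value.

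**Figure D5:**
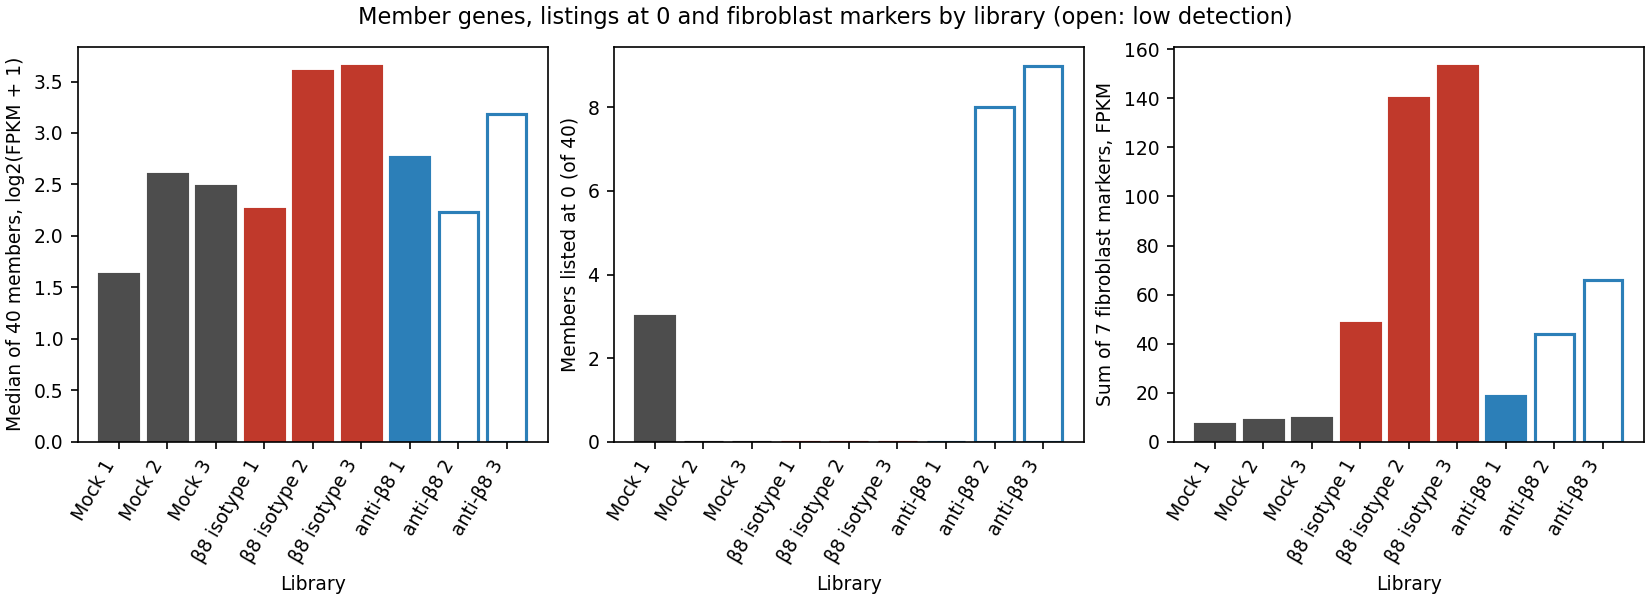
Bars for each library of the median log2(FPKM + 1) of the 40 members (left), the number of members listed at 0 (middle) and the summed unnormalized FPKM of 7 fibroblast markers (right), with open bars for anti-β8 pools 2 and 3. β8 isotype pools 2 and 3 are highest in the left and right panels, and listings at 0 are in anti-β8 pools 2 and 3 and Mock pool 1.

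By library, the median member was at 1.63, 2.6 and 2.48 on the log2(FPKM + 1) scale in Mock, at 2.26, 3.60 and 3.66 in β8 isotype, and at 2.76, 2.24 and 3.18 in anti-β8. Markers of other cells differed between libraries as well. The summed level of 7 fibroblast markers was 7.31 to 9.91 FPKM in Mock, 48.5, 140 and 153 FPKM in β8 isotype pools 1 to 3, and 18.7 to 65.9 FPKM in anti-β8, and it was highest in the same 2 libraries as the members. Dcn and Col3a1 gave most of that sum, Pdgfrb was at 0 in 7 of 9 libraries and Pdgfra in 6, and the part of other cells in the members' levels was not tested. Of these 7 markers 3 were kept for testing, all 3 were above 0 in β8 isotype against Mock with a median log2 difference of 3.23, and limma called 0 of them. Myeloid markers summed to 293 to 555 FPKM in Mock, to 669, 275 and 183 FPKM in β8 isotype pools 1 to 3, and to 694, 559 and 405 FPKM in anti-β8 pools 1 to 3. Their order was opposite to that of the members' medians in β8 isotype but not in anti-β8. B cell markers summed to 232 to 331, 323 to 435 and 422 to 540 FPKM in Mock, β8 isotype and anti-β8, and CD8 and NK markers to 19.6 to 29.3, 24.8 to 44.7 and 40.5 to 54.6 FPKM. Erythroid markers summed to 62.1 to 315 FPKM in Mock, 32.6 to 39.4 FPKM in β8 isotype and 0 to 86.7 FPKM in anti-β8. The tumour and epithelial markers summed to 33.0 to 52.3 FPKM in Mock, 45.7 to 60.2 FPKM in β8 isotype and 28.7 to 123 FPKM in anti-β8, with Krt7 and Cldn4 at 0 in all 9.

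Other cell cycle genes were looked at as 9 lists with 142 genes kept, none of them a member, and limma called 0 of the 142 in any comparison. At an unadjusted p under 0.05, 21 were higher and 2 lower in β8 isotype against Mock, 0 higher and 10 lower in anti-β8 against β8 isotype, and 18 higher and 9 lower in anti-β8 against Mock. As shares of the 142 these were 14.8% higher and 1.41% lower in the first comparison, 7.04% lower in the second, and 12.7% higher and 6.34% lower in the last. The shares lower were near or under those of all genes, which were 2.58%, 6.20% and 7.87%. Of all genes, 2.99%, 3.97% and 6.09% were higher in the same comparisons. Of 16 S phase genes, 9 were higher at that level in β8 isotype against Mock, with a median log2 difference of 0.96, and among them were the helicase subunits Mcm2 (1.18 ± 0.31, SE) and Mcm3 (0.89 ± 0.25). In anti-β8 against β8 isotype the S phase genes of smallest p were Rrm2 (-0.98 ± 0.47), the ribonucleotide reductase subunit, and Tk1 (-0.88 ± 0.56), thymidine kinase.

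At the same unadjusted level, 3 of 27 other kinetochore genes were higher in β8 isotype against Mock, against 2.99% of all genes. They were led by the passenger subunit Cdca8 (1.47 ± 0.52) and Spc24 (1.82 ± 0.69) of the Ndc80 complex. In anti-β8 against β8 isotype 2 of the 27 were lower, Cenpt (-2.30 ± 0.71) and Mis12 (-1.25 ± 0.55), against 6.20% of all genes. Cenpt was at the value of genes listed at 0 in anti-β8 pools 2 and 3, and Mis12 in pool 2. Among 17 other spindle and cytokinesis genes, the abscission factor Cep55 was higher (1.34 ± 0.40) and the tubulin Tubb4b lower (-0.53 ± 0.16) in β8 isotype against Mock. Dlgap5 (-1.83 ± 0.59) and Cep55 (-1.14 ± 0.40) were lower in anti-β8 against β8 isotype. Dlgap5 was at the value of genes listed at 0 in both anti-β8 pools of low detection. Among 15 genes listed with condensin and cohesin, the smallest p values in β8 isotype against Mock belonged to Smc2 (1.29 ± 0.52) and Stag1 (-0.75 ± 0.31). In anti-β8 against β8 isotype they belonged to Pttg1 (-0.31 ± 0.15), which encodes securin, and Ncapd2 (0.95 ± 0.52). Among 17 G2/M switch genes the kinases Pbk (1.52 ± 0.62) and Melk (1.34 ± 0.55) led in β8 isotype against Mock. Both were lower in anti-β8 against β8 isotype (-1.70 ± 0.62 and -1.36 ± 0.55). Pbk was at the value of genes listed at 0 in anti-β8 pools 2 and 3, and Melk in pool 3.

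Of 8 G1 cyclins and CDKs, 3 were higher at that level in β8 isotype against Mock, against 2.99% of all genes. In anti-β8 against β8 isotype 3 were lower, against 6.20% of all genes. The higher genes include Ccnd2, cyclin D2, which stood at 0.79 ± 0.18 in β8 isotype against Mock, and Ccne1, cyclin E1, at 1.48 ± 0.56. Ccne1 is in both counts, which share the β8 isotype pools. In anti-β8 against β8 isotype, Cdk6 stood at -1.23 ± 0.33 and Ccne1 at -1.97 ± 0.56. Ccne1 was at the value of genes listed at 0 in anti-β8 pools 2 and 3. No gene in the lists of APC/C genes, transcriptional regulators and CDK inhibitors reached an unadjusted p under 0.05 in either of these comparisons. Their smallest p values in β8 isotype against Mock belonged to Anapc16 (-0.49 ± 0.24) and Fzr1 (0.50 ± 0.26), to Lin9 (0.96 ± 0.47) and Tfdp1 (0.54 ± 0.39), and to Cdkn2b (-0.98 ± 0.63) and Cdkn1b (-0.46 ± 0.35). In anti-β8 against β8 isotype they belonged to Ube2s (0.36 ± 0.20) and Cdc16 (-0.93 ± 0.55), Rbl1 (0.80 ± 0.63) and Lin52 (0.68 ± 0.53), and Cdkn1b (-0.38 ± 0.35) and Cdkn1c (-0.78 ± 0.88).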

How the data were processed

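RNA was made into cDNA with a SMART-Seq v4 kit and into libraries with Nextera XT, per the labels' protocols; these kits mark no strand and carry no molecular identifiers. Nothing in the labels says what the GFP marks, how many cells were sorted or which libraries shared a batch. The authors deposited FPKM values, per the file headers, in an unnormalized table (53251 genes) and a normalized one (16409 genes). Software listed in the submitters' processing notes is STAR 2.6.1a, RSEM 1.3.1, Trim Galore 0.5.0, Cufflinks and Picard, with the build GRCm38. Which of them gave the values, and the gene annotation behind them, are not given in those notes. The sorted values of the normalized libraries differed by at most 0.0907% over the top 1000 ranks, as quantile normalization leaves them. Of the 12555 genes kept, 12541 had an identifier in GENCODE M21, and 1 unnormalized row with shifted cells was left out.

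The normalized values were analysed as log2(FPKM + 1), which understates differences of low genes. All 9 libraries entered 1 linear model in limma 3.58.1 (R 4.3.3, trend and robust empirical Bayes, two-sided), with Benjamini-Hochberg adjustment over all genes kept and a threshold of 0.05. Count models were not used, because FPKM are not whole reads, and the depth is an estimate. The model was tested on simulated data with independent normal noise. The simulation had no pools of low detection, so it does not cover them. Replicates are pools of mice, so p-values measure the spread between pools. A log2 difference is given with its standard error (SE) and an FPKM mean with its standard deviation (SD).

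Members and gene lists were chosen with earlier results of these data known. Values in every pool are given for 16 members (Mki67, Top2a, Cdk1, Ccnb1, Ccnb2, Plk1, Birc5, Cdc20, Bub1b, Cenpf, Kif11, Tpx2, Stmn1, Tubb5, Hmgb2 and Bub3) and for the 2 of smallest p in each comparison, and for each other list its 2 genes of smallest p are named. Alternatives were other pseudocounts, filters, tables, model settings, a replicate block and leaving out pools.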

Additional observations from a re-analysis of the deposited data

How the results depend on the processing

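The groups share pool numbers, and deviations of same-numbered pools correlated at -0.040 to 0.046. Those of differently numbered pools correlated at -0.045 to 0.071. No pairing by number was seen over all genes, but such correlations cannot exclude a batch shared by number. A replicate block cannot change a group difference here, because every group has the same pool numbers. With it, 0 members were called in each comparison. Members higher in anti-β8 against Mock at an unadjusted p under 0.05 were 8 instead of 5 (5.99% of all genes). Sample weights gave 1 called member in β8 isotype against Mock (Stmn1, 1.13) and 21 instead of 12 members higher at an unadjusted p under 0.05, while calls over all genes went from 1 to 111 and genes higher at that level from 375 to 859. Leaving out 1 pool at a time gave 0 to 1 called members in anti-β8 against β8 isotype and 0 to 1 in anti-β8 against Mock, and 0 in β8 isotype against Mock.

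The median of anti-β8 against Mock was -0.033 on the unnormalized table and -0.069 on that table scaled to equal totals. These tables also shift the median of all genes in anti-β8 against β8 isotype, to -0.20 and -0.27, and give 9 instead of 5 members lower there at an unadjusted p under 0.05. On the first of them 9.60% of all genes were lower, against 6.20%. On them Ccnb1 (-0.0092 and -0.068) and Cenpf (-0.16 and -0.19) changed sign against Mock. Sample weights turned Top2a (0.32) and Cdc20 (0.19) in that comparison. Removing both anti-β8 pools of low detection turned Ccnb1 (0.17) and Cdc20 (0.12) against β8 isotype. The same removal turned Top2a (1.00), Cdk1 (0.36), Plk1 (0.35), Cdc20 (1.19), Kif11 (-0.049) and Aurkb (0.59) against Mock. With single pools left out, log2 differences ranged across 0 for Tubb5 in β8 isotype against Mock (-0.084 to 0.31). They did so in anti-β8 against β8 isotype for Cenpf (-0.86 to 0.013), Kif11 (-0.69 to 0.34) and Stmn1 (-0.44 to 0.032). Against Mock they did so for Top2a (-0.88 to 0.34), Cdk1 (-0.85 to 0.46), Cdc20 (-1.23 to 0.72), Cenpf (-0.33 to 0.54), Kif11 (-0.043 to 0.98) and Bub3 (-0.0049 to 0.21). The cause of these changes was not tested. Of the values of the 17 members given in every pool, 337, 331 and 320 kept their direction and side of the threshold in the 3 comparisons, and 2, 8 and 20 changed sign. Many of these settings leave a log2 difference unchanged by design, and no member was called in the main fits. The counts therefore do not measure stability. Low values and 3 pools a group limit what can be detected.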
